A study of Xenopus laevis with 6 samples.

Results

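The genes described here belong to bone morphogenetic protein (BMP), transforming growth factor beta (TGF-beta), nodal and activin signalling. They were taken as the probe sets with 1 gene symbol whose name starts with bmp, acvr, smad, gdf, nodal, inhb, fst, chrd, grem, bambi, szl, msx or ventx, or with tgfb followed by r or a digit from 1 to 3, or is nog or id1 to id4. The tgfb part also takes in tgfb1i1.L, which encodes neither a ligand nor a receptor. The rule reads names and no measured value, but it was set with earlier results of these data known. It gave 80 probe sets for 65 gene symbols, out of 15491 probe sets on the array once controls were removed, of which those with 1 symbol cover 7531 symbols. Another 9 probe sets carry more than 1 symbol, at least 1 of which fits the rule, and were left out. RNA came from stage 24 Xenopus laevis embryos, from blocks of flank tissue about 70 × 100 × 70 µm in size that hold the rudiment of the pronephros, the larval kidney. Explants were cut on both flanks and 300 went into each pool. Untreated explants gave 3 pools and explants treated with bhh (banded hedgehog, a secreted ligand of the hedgehog family) gave 3, with 1 Affymetrix array per pool. No strain, genotype or age beyond the stage is named, and neither the way bhh was supplied nor a mock-treated group is given, so bhh and the handling that went with it cannot be told apart. Nothing says that the pools came from separate matings, so p-values measure the spread between these pools.

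In this family, secreted dimeric ligands bring together type I and type II receptor kinases, which phosphorylate receptor Smad proteins. Smad1, Smad5 and Smad9 carry the BMP signal, Smad2 and Smad3 carry that of TGF-beta, activin and nodal, and Smad4 joins both. Outside the cell, antagonists such as noggin, chordin, gremlin and follistatin bind the ligands and keep them from the receptors. Smad6, Smad7 and the pseudoreceptor Bambi damp the signal from inside or at the membrane. In Xenopus embryos, BMP signalling is known for ventral and lateral mesoderm fates, and the id, msx and ventx genes are well-known genes switched on by it. The X. laevis genome doubled in its past, and the letters .L and .S after a symbol tell the resulting gene copies apart.

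Values are MAS5 signals on a linear scale, and each array had been scaled to the same trimmed mean, 500.1. A signal of 37.6, under which 95% of the single-array signals of 44 control probe sets for bacterial and tag sequences lay, serves below as the control level. The transcript of the ligand was plain on the treated arrays: ihh.S, today's name for the bhh gene, had signals of 14.3 to 36.0 on untreated and 2824.2 to 3121.3 on treated arrays. In lists of tissue markers, 4 of 10 tested pronephros probe sets fell and 1 rose, 4 of 17 of somite and skeletal muscle fell, and 3 of 9 of lateral plate and heart rose (limma, adjusted p under 0.05). Over all tested probe sets, 0.637% fell and 0.74% rose in this fit. The summed signal of the pronephros list was 2296.4 to 2690.8 on untreated and 1007.4 to 1234.0 on treated arrays, that of the muscle list 91495.6 to 99540.5 and 69347.2 to 75395.2, and that of the lateral plate list 3122.9 to 3282.8 and 5751.8 to 5833.4. Bright probe sets weigh most in these sums, such as those of tnnt3.S and ckm.L for muscle and hand1.L for lateral plate. In the list for blood and vessels, fli1.S fell. Lists for epidermis, neural tissue, neural crest, endoderm and axial tissue held no probe set that passed this fit. With the replicate number as a block, the passes were 1 higher and 5 lower for pronephros, 1 higher (myod1.S) and 10 lower for muscle, and 6 higher for lateral plate and heart. Of all tested probe sets, 3.65% passed higher and 2.66% lower with the block. The block also added aplnr.L and aplnr.S, both higher, for blood and vessels, tubb2b.S, lower, for neural tissue and foxd3.L, higher, for neural crest. The other copy, foxd3.S, went the other way, with a log2 fold change of -0.49 (SE 0.21), and passed in neither fit. In whole tissue, fewer cells of a type and less RNA per cell cannot be told apart.

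Of the 80 probe sets, 48 had enough signal to be tested, for 42 symbols. Of these, 4 changed with bhh, 3 upward and 1 downward (limma adjusted p under 0.05): nodal1.L, a nodal ligand gene, smad1.S, which encodes a BMP transducer, and ventx2.1.S, a ventral homeobox gene, rose, while fst.L, the follistatin gene, fell. Over all 11618 tested probe sets, 1.38% changed, with 0.74% upward and 0.637% downward. At an unadjusted p under 0.05, 12 of the 48 were higher and 2 lower, beside 6.4% and 5.81% of all. Group labels share the numbers 1 to 3. Deviations of same-numbered arrays from their group means correlated at 0.407, 0.178 and 0.298. Crossing numbers 2 and 3 gave 0.173 and 0.147, so the pairing of those numbers is poorly resolved. With the number as a block in the fit, 8 of the 48 passed upward and 2 downward, against 3.65% and 2.66% of all tested probe sets. The 6 that were added were bmp2.L, smad7.L, id3, msx1.L, msx1.S and, lower, grem1.L. All 10 had groups that did not overlap, so each also moved the same way in all 3 same-numbered pairs. A test on the same arrays favours such groups, so this is no further support. Groups were separated upward for 9.3% and downward for 9.01% of all tested probe sets.

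**Figure D1:**
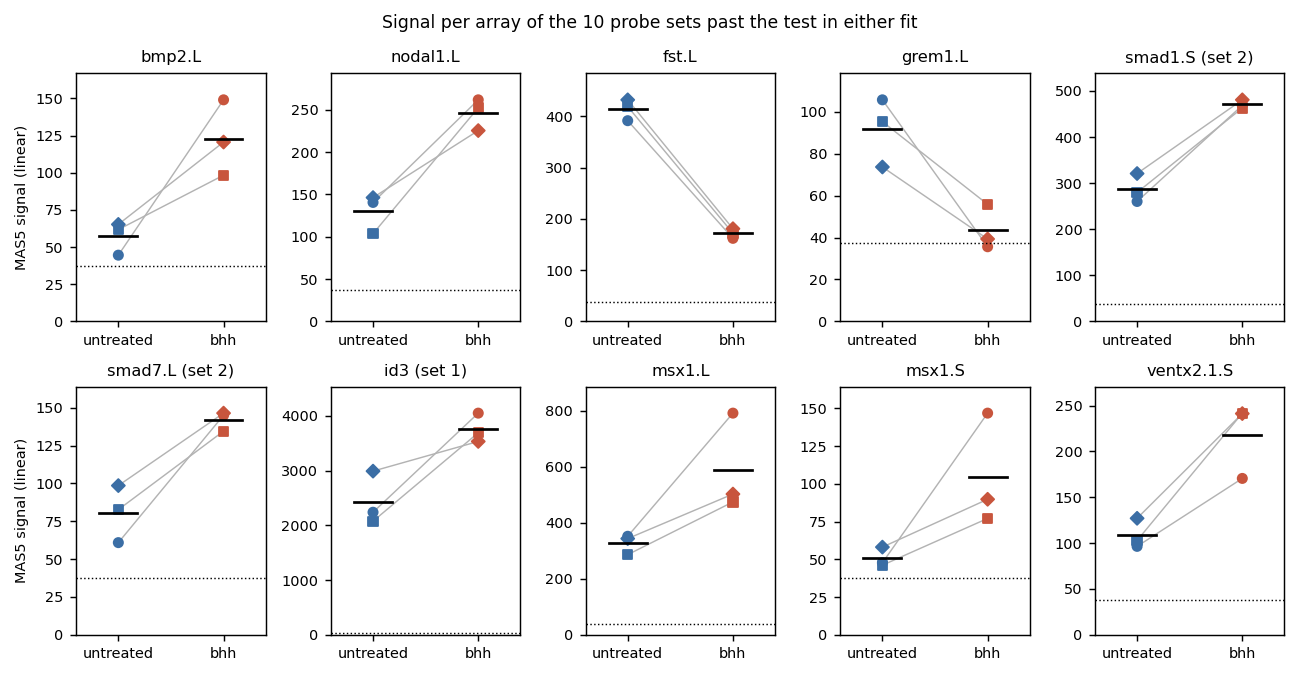
MAS5 signal (linear axis from 0) on each array for the 10 probe sets that passed the limma test without or with the replicate block. Points are arrays (blue untreated, red bhh-treated; circles, squares and diamonds are replicates 1, 2 and 3), grey lines join same-numbered arrays, black bars are group means and the dotted line is the control level of 37.6. In every panel the 3 arrays of one group lie apart from those of the other, and fst.L and grem1.L are the panels that go down.

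The log2 fold change lay within 0.5 of 0 for 35 of the 48 (72.9%) and for 90.9% of all tested probe sets. The median log2 fold change was 0.19 over the 48 and 0.00 over all tested probe sets. A value above 0 was found for 34 of the 48, or 70.8%, and for 50.5% of all. The groups were separated upward for 15 of the 48 and downward for 2, beside 9.3% and 9.01% of all tested probe sets. These counts cover only probe sets bright enough on average, and several share a gene.

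**Figure D2:**
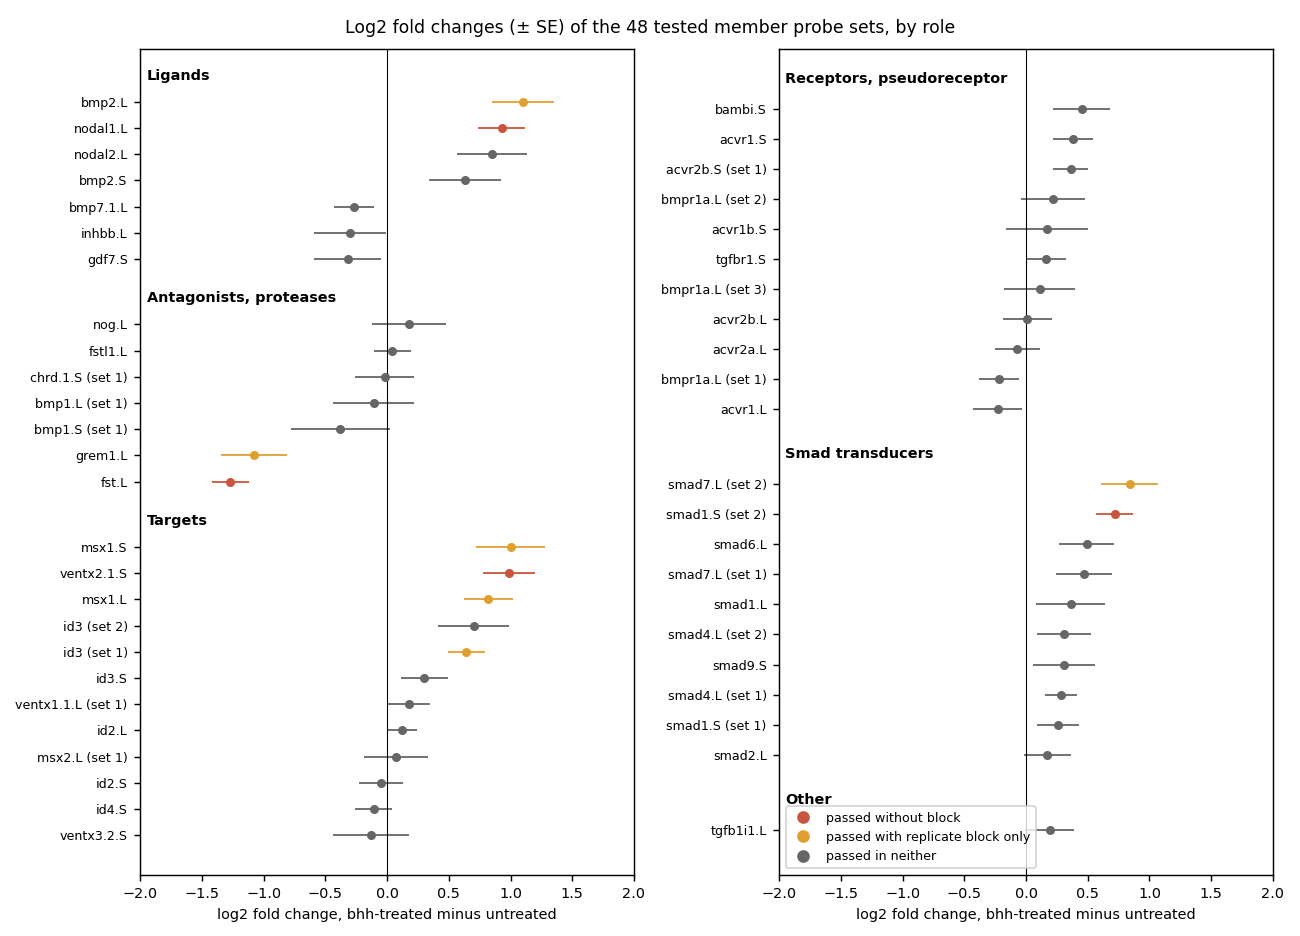
Log2 fold change (bhh-treated minus untreated, horizontal axis; points with SE bars from limma) of the 48 tested probe sets, sorted within their role. Where a gene has several probe sets, they are numbered by their untreated signal. Receptors lie between -0.23 and 0.45, all Smad probe sets lie above 0, and fst.L and grem1.L stand at -1.27 and -1.08.

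Ligand genes were mostly near or under the control level. Of 19 ligand probe sets, 1 per gene, 7 were tested and 10 had both group means below 37.6. These dim genes were bmp7.2.L, gdf1.S, gdf3.S, gdf6.S, inhbc.1.L, nodal.L, nodal3.1.L, nodal5.2.L, nodal6.L and tgfb1.L. A further pair, bmp4.S and tgfb2.L, lay just above the control level and was not tested. The signal of bmp4.S, a BMP ligand gene of ventral mesoderm, was 46.9, 40.6 and 38.9 without and 41.5, 56.7 and 43.9 with bhh, so the groups overlapped. A probe set for both bmp4 copies was among those left out for carrying several symbols.

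The ligand gene that rose was nodal1.L. Nodal genes are known in Xenopus for mesoderm and endoderm formation and, at tailbud stages, for nodal1 expression in the left lateral plate. Its signal was 140.5, 103.6 and 146.2 without bhh (arrays 1, 2 and 3, the order kept throughout) and 261.6, 252.2 and 225.3 with it. All treated arrays thus lay well above all untreated ones. The log2 fold change was 0.93 ± 0.19 (SE, 1.91-fold, limma adjusted p = 0.0434, blocked 0.00387). With any single array removed the call did not hold, and the adjusted p lay between 0.0523 and 0.211. It also ended with quantile normalization (0.0537), scaling to a common median (0.054), no filter on dim probe sets (0.061) and no trend in the variance (0.0645). The next gene in the RefSeq order of assembly Xenopus_laevis_v10.1, nodal2.L, gave 52.0, 29.7 and 45.6 without and 84.8, 76.4 and 64.2 with bhh. Its groups did not overlap either, but a log2 fold change of 0.85 ± 0.28 did not pass (adjusted p = 0.238, blocked 0.0931). The nodal genes are close relatives, and binding of one gene's transcript by another's probes was not tested.

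Both copies of bmp2, a BMP ligand gene, had higher mean signals in treated explants. On bmp2.L the signal was 44.6, 61.8 and 65.3 without and 149.1, 98.4 and 120.7 with bhh. Its lowest treated array was still above the highest untreated one. The log2 fold change of 1.1 ± 0.25 did not pass without the block (adjusted p = 0.0736) and passed with it (0.0147). On bmp2.S the untreated arrays lay close together, at 49.0, 49.6 and 47.3, and the treated ones spread from 52.8 on array 1 through 72.9 on array 2 to 110.8 on array 3. A log2 fold change of 0.63 ± 0.29 resulted, which passed in neither fit (adjusted p = 0.424 and, with the block, 0.21) and was 0.35 without treated array 3. The array that was highest for one copy was lowest for the other: treated array 1 was the top value of bmp2.L and the bottom treated value of bmp2.S.

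The other tested ligands had values below 0. The BMP ligand gene bmp7.1.L had signals of 775.1, 819.8 and 877.6 without and 546.3, 732.1 and 797.8 with bhh, and the groups overlapped. Its log2 fold change was -0.27 ± 0.16 (95% interval -0.62 to 0.08). The remaining values were -0.32 ± 0.27 for gdf7.S, a BMP-type ligand gene, and -0.30 ± 0.29 for inhbb.L, which encodes an activin and inhibin subunit. Neither passed in either fit.

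Among extracellular antagonists and the proteases that act on them, follistatin and gremlin stood out on the low side. Of 14 probe sets for 10 genes, 7 were tested, 1 fell without the block and 2 with it, and none rose in either fit. Over all tested probe sets, 0.637% fell without the block and 2.66% with it. At an unadjusted p under 0.05, 0 of the 7 were higher and 2 lower, beside 6.4% and 5.81% of all. With 7 tested, 0 higher is near that share. The follistatin gene fst.L encodes a secreted protein that binds activin and, more weakly, BMPs. Its signal was 391.8, 419.3 and 432.5 without and 162.2, 172.2 and 181.0 with bhh. Arrays of a group differed by little beside the gap between groups. This made a log2 fold change of -1.27 ± 0.15, or 2.41-fold lower in treated explants (limma adjusted p = 0.00188, blocked 3.1e-05). Of the 4 calls, that of fst.L alone held under all 15 other settings of the fit. Its adjusted p lay between 0.00371 and 0.0186 when 1 array was left out.

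Gremlin, a secreted BMP antagonist, is encoded by grem1.L. The signal was 105.6, 95.2 and 73.6 without and 35.6, 55.8 and 39.3 with bhh. Every treated array lay below every untreated one, and treated array 1 was under the control level. The log2 fold change was -1.08 ± 0.27 (2.12-fold lower), which did not pass without the block (adjusted p = 0.102) and passed with it (0.0259). The other antagonist genes had values closer to 0 and passed in neither fit. The noggin gene nog.L gave 49.5, 52.2 and 84.3 without and 49.4, 86.2 and 74.9 with bhh. These groups overlapped, with a log2 fold change of 0.18 ± 0.30 (95% interval -0.49 to 0.85). On the brighter probe set of the chordin gene chrd.1.S the value was -0.02 ± 0.24, and on fstl1.L, which encodes a secreted follistatin-like glycoprotein, 0.04 ± 0.15. The dimmer chrd.1.S probe set was not tested.

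The bmp1 genes encode a metalloprotease that cleaves chordin. Of 5 probe sets for the .L and .S copies, 2 were tested. The untested bmp1.S probe sets read 6.9 to 62.1. The brighter tested one, on bmp1.S, carries the array maker's mark for probes that may also bind related transcripts. It read 245.2 and 153.9 on untreated and treated array 1 but 66.3 to 97.5 on the other 4 arrays. Its level thus differed with the replicate number (adjusted p = 0.0118 for the number in the blocked fit), and its log2 fold change between groups was -0.38 ± 0.40. That of bmp1.L was -0.11 ± 0.33, with a change of sign when untreated array 1 or treated array 1 was left out, and bmp1.S changed sign without untreated array 1. Both intervals are wide, from -1.26 to 0.51 for bmp1.S and from -0.84 to 0.61 for bmp1.L. The genes bmper.L, for a secreted BMP-binding protein, and szl.L and szl.S, for the Xenopus protein sizzled that inhibits chordin proteases, lay below the control level in both groups.

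No receptor probe set passed in either fit. There were 17 for 13 genes, of which 11 were tested, 2 of these above and 0 below untreated at an unadjusted p under 0.05. Over all tested probe sets, 6.4% were above and 5.81% below at that p. With 11 tested, 0 below is near that share. All 11 log2 fold changes lay between -0.23 and 0.45, and the outermost bounds of their 95% intervals were -0.67 and 0.95. The type II receptor gene acvr2b.S, which serves activin, nodal and BMP ligands, had the smallest p of them. It read 669.0, 590.2 and 596.8 without and 689.1, 883.6 and 816.3 with bhh. These groups did not overlap, though treated array 1 was close to untreated array 1. The log2 fold change was 0.36 ± 0.14 (adjusted p = 0.339, blocked 0.106), beside 0.01 ± 0.20 for acvr2b.L.

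The copies of acvr1, a type I receptor gene of the BMP branch, had values on opposite sides of 0. On acvr1.S the signal was 228.2, 281.5 and 277.6 without and 362.8, 321.2 and 339.5 with bhh, a log2 fold change of 0.38 ± 0.16 (adjusted p = 0.364). The copy acvr1.L gave 168.6, 202.5 and 207.5 without and 133.7, 164.9 and 199.2 with bhh, or -0.23 ± 0.20 (adjusted p = 0.704). The log2 ratio of acvr1.L to acvr1.S within an array was -0.48 to -0.42 on untreated and -1.44 to -0.77 on treated arrays, so the groups did not overlap in it. This was 1 of 8 comparisons of .L with .S probe sets, and the ratios of the other 7 overlapped between the groups. In these, smad1.L entered with each smad1.S probe set. No share was taken over the .L and .S pairs of all genes. For single tested probe sets, 9.3% were separated upward and 9.01% downward. The difference between the acvr1 copies was not tested.

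The BMP type I receptor gene bmpr1a.L was read by 3 probe sets that did not share a sign, with log2 fold changes of -0.22 ± 0.16 on the brightest, 0.22 ± 0.26 and 0.11 ± 0.29. The second of these, marked like the tested bmp1.S probe set, varied with the replicate number (adjusted p = 0.0239). Small values were also found for acvr2a.L (-0.07 ± 0.18), the nodal and activin type I receptor gene acvr1b.S (0.17 ± 0.33) and the TGF-beta type I receptor gene tgfbr1.S (0.16 ± 0.16). The BMP type II receptor gene bmpr2.S, bmpr1a.S, both probe sets of tgfbr2l.L and a dim probe set of acvr2b.S were not tested.

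Bambi is a pseudoreceptor without kinase activity whose gene is known to follow BMP signalling. The signal of bambi.S was 168.9, 154.6 and 138.5 without and 158.2, 204.2 and 285.4 with bhh. The groups overlapped through treated array 1, and a log2 fold change of 0.45 ± 0.23 did not pass (adjusted p = 0.463). It was 0.23 without treated array 3. The bambi.L probe set was too dim for the test. It read 21.6, 37.3 and 28.2 without and 73.3, 47.7 and 46.9 with bhh, at least 1.46-fold higher, where "at least" means that untreated arrays under the control level were set to it. Treated array 1 was thus the highest for bambi.L and the lowest of the treated ones for bambi.S.

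All 10 tested probe sets of Smad genes, for 7 symbols, had log2 fold changes above 0, from 0.17 to 0.84. The lowest, smad2.L, kept its sign in 13 of 16 settings of the fit, while the other 9 kept theirs in every setting that gave a value. A single one passed without the block and 2 passed with it, beside 0.74% and 3.65% of all tested probe sets upward. The probe sets share genes, and 50.5% of all tested probe sets lay above 0. The BMP transducer gene smad1.S rose on 1 of its 2 probe sets, from 260.3, 279.8 and 320.9 to 468.8, 463.2 and 480.8. The treated arrays lay within a narrow range above all untreated ones. There the log2 fold change was 0.72 ± 0.15 (1.65-fold, limma adjusted p = 0.0385, blocked 0.00321). As for nodal1.L, removal of any single array ended the call (adjusted p from 0.0589 to 0.199), as did the fit with no trend (0.0773).

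The other and brighter probe set of smad1.S read 550.7, 511.0 and 373.0 without and 512.8, 613.5 and 578.8 with bhh. Its groups overlapped, and its log2 fold change was 0.26 ± 0.17 (adjusted p = 0.586). The log2 ratio of these probe sets within an array was 0.22 to 1.08 on untreated and 0.13 to 0.41 on treated arrays, which overlapped as well. The copy smad1.L had 0.36 ± 0.28, and smad9.S, also of the BMP branch, had 0.31 ± 0.25. The common partner gene smad4.L gave 0.28 ± 0.13 and 0.31 ± 0.22 on its probe sets. For smad2.L, of the TGF-beta and nodal branch, the value was 0.17 ± 0.19, and treated array 1 (574.7) stood above the other 5 arrays (347.6 to 387.9). The probe sets of smad3.L and of smad8c lay under the control level in both group means.

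Among the inhibitory Smad genes, smad7.L held the highest of the 10 Smad values. For smad7.L, 3 probe sets were present. The one that passed with the block read 60.9, 82.7 and 98.6 without and 145.1, 134.6 and 146.5 with bhh, without overlap. Its log2 fold change was 0.84 ± 0.23 (1.79-fold, adjusted p = 0.136 without and 0.0277 with the block). A brighter probe set of smad7.L gave 119.7, 160.4 and 123.6 without and 135.9, 209.4 and 222.9 with bhh, with overlapping groups and a log2 fold change of 0.47 ± 0.23 (adjusted p = 0.451). The dimmest read 13.4, 9.8 and 27.7 without and 38.8, 54.0 and 39.8 with bhh and was not tested. On smad6.L the treated arrays were close together, at 335.5, 328.7 and 338.3, while the untreated ones were 250.7, 323.8 and 165.6. The value of 0.49 ± 0.22 for smad6.L did not pass (adjusted p = 0.411) and was 0.23 without untreated array 3.

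Of the 16 target probe sets for 13 genes, 12 were tested. One, ventx2.1.S, rose without the block, 4 passed upward with it, and 0 passed downward in either fit. Over all tested probe sets, 0.74% rose and 0.637% fell without the block, and 3.65% and 2.66% with it. At an unadjusted p under 0.05, 5 of the 12 were higher and 0 lower, beside 6.4% and 5.81% of all. With 12 tested, 0 downward is near these shares. The 12 had a median log2 fold change of 0.24, beside 0.00 over all tested probe sets. The ventx genes encode homeobox repressors that promote ventral fates in Xenopus. The signal of ventx2.1.S was 96.4, 102.8 and 127.0 without and 170.5, 241.7 and 241.2 with bhh. Treated array 1 was the lowest of its group and still above the untreated arrays. The log2 fold change was 0.99 ± 0.21 (1.99-fold, limma adjusted p = 0.0498, blocked 0.00261), close to the threshold. Without treated array 1 it held (0.0226), and it was lost on leaving out any of the other 5 arrays, with an adjusted p of up to 0.287. It also ended with no filter (0.0741) and no trend (0.0692). The array maker marks this probe set as one whose probes may also bind related transcripts.

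Its partner ventx2.1.L was too dim to test and read 38.6, 19.8 and 15.6 without and 41.8, 85.9 and 66.4 with bhh, at least 1.63-fold higher. As on ventx2.1.S, treated array 1 was the lowest treated value. The remaining ventx genes had values nearer 0 or were too dim. The brighter ventx1.1.L probe set gave 0.18 ± 0.17 and ventx3.2.S gave -0.13 ± 0.31, while ventx2.2.L lay below the control level in both groups.

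Both copies of msx1, a homeobox gene of dorsal neural tube, neural crest and lateral tissues, were separated upward, beside 9.3% of all tested probe sets. On msx1.L the signal was 351.6, 286.0 and 343.3 without and 791.2, 474.1 and 502.3 with bhh. On msx1.S it was 47.7, 46.1 and 58.1 and then 146.9, 77.1 and 89.8. Treated array 1 was the highest array for both. The log2 fold changes were 0.82 ± 0.20 for msx1.L (adjusted p = 0.0957, blocked 0.00183) and 1.00 ± 0.28 for msx1.S (0.155, or 0.0351 with the block). Without both arrays numbered 1, msx1.L passed (adjusted p = 0.0245) and msx1.S did not. The brighter msx2.L probe set gave 0.07 ± 0.26, with overlapping groups.

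The id genes encode helix-loop-helix proteins that bind and hold back other such factors. Of 6 probe sets, all tested, 1 passed upward with the block, beside 3.65% of all tested probe sets. It was the one named id3 without a copy letter, which read 2238.7, 2075.0 and 2989.9 without and 4049.7, 3690.6 and 3532.4 with bhh. The groups did not overlap, and the log2 fold change was 0.64 ± 0.15 (1.56-fold, adjusted p = 0.0862, blocked 0.00329). A second id3 probe set, marked like that of ventx2.1.S, read 585.2, 1112.9 and 1086.6 without and 2228.0, 1161.8 and 1164.4 with bhh. There untreated array 1 was the lowest array and treated array 1 the highest. Its log2 fold change of 0.70 ± 0.29 (adjusted p = 0.366) became 0.39 when the former was left out, 0.38 when the latter was, and 0.08 when both were. On id3.S both arrays numbered 1 were the lowest of their group, at 1129.2 and 1631.9, with an adjusted p = 0.034 for the replicate number, and the log2 fold change was 0.30 ± 0.19, or 0.07 without untreated array 1.

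The other id genes had values near 0. The signal of id2.L was 4071.4, 3587.2 and 3566.4 without and 4054.7, 4101.8 and 3999.5 with bhh, and untreated array 1 lay among the treated ones. Its log2 fold change was 0.12 ± 0.12 (95% interval -0.15 to 0.39). For id2.S it was -0.05 ± 0.18 and for id4.S -0.11 ± 0.15. Differences between id3 and the other id genes were not tested. The last of the 48, tgfb1i1.L, which encodes a LIM-domain adaptor protein, gave 0.19 ± 0.20.

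**Figure D3:**
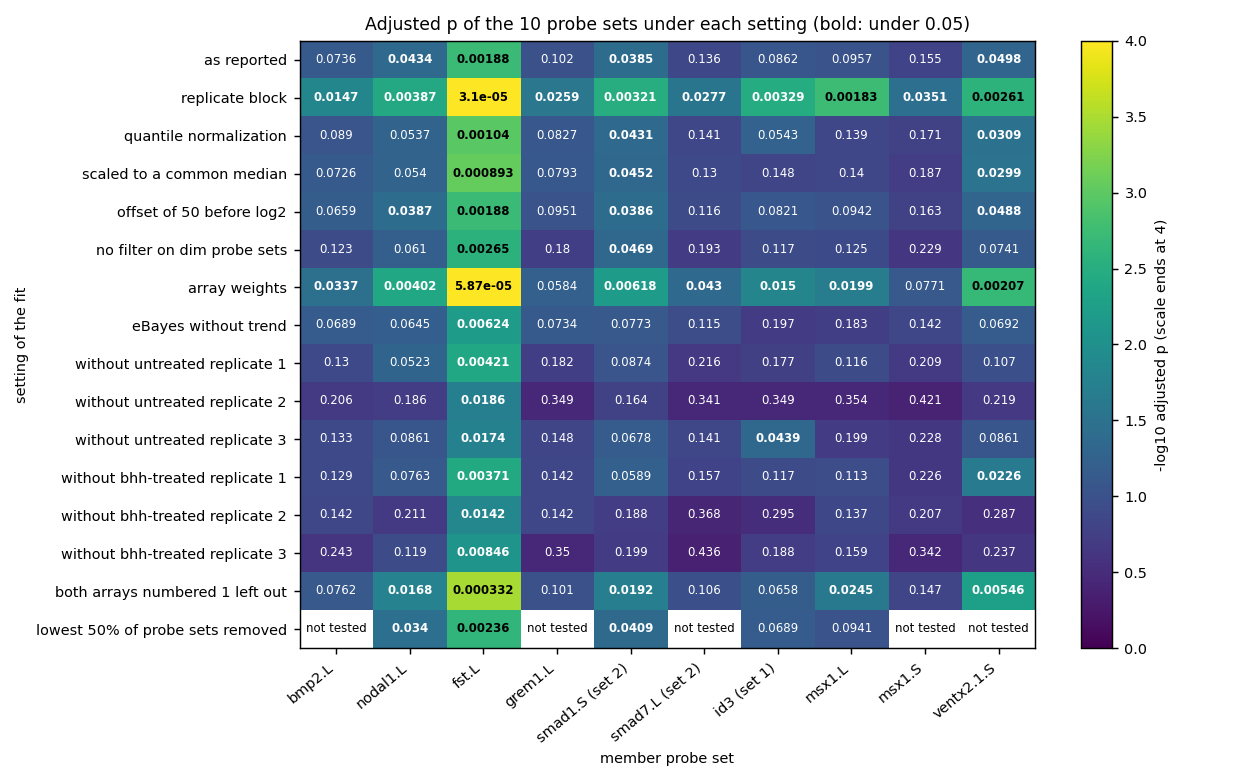
Limma adjusted p (number in each cell, colour as -log10) of the 10 probe sets (columns) under the reported fit and 15 other settings (lines of cells), bold where under 0.05. The fst.L column is under 0.05 throughout, while the columns of nodal1.L, smad1.S and ventx2.1.S lose their calls when single arrays are left out.

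Of the 32 probe sets that were not tested, 20 had both group means below the control level. Among all 32, the groups were separated upward for 3, named above (bambi.L, smad7.L and ventx2.1.L), and downward for 2, bmper.L and bmpr1a.S. Of all tested probe sets, 9.3% were separated upward and 9.01% downward, and the share among untested ones was not taken. The signals of bmper.L and bmpr1a.S lay at or below 34.0 on every array and carry no fold.

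A list of other pathway genes that the naming rule leaves out held 80 probe sets for 67 symbols, of which 53 were tested. Of these, 2 rose and 0 fell, beside 0.74% and 0.637% of all tested probe sets. With the block, 3 passed upward and 0 downward, beside 3.65% and 2.66%. At an unadjusted p under 0.05, 10 of the 53 were above untreated and 2 below, beside 6.4% and 5.81% of all. The median log2 fold change was 0.10, beside 0.00 over all tested probe sets. ltbp1.S, which encodes a matrix protein that stores latent TGF-beta, rose from 83.3, 59.2 and 42.0 to 184.2, 137.8 and 177.5. The groups were far apart, with a log2 fold change of 1.48 ± 0.27 (2.79-fold, limma adjusted p = 0.0238). Without untreated array 1 its call held, and it was lost without any of the other 5 arrays, with an adjusted p of up to 0.126. The lateral plate gene hand1.L, which BMP signalling is known to support, rose from 924.2, 1200.1 and 1054.4 to 2323.9, 2048.6 and 1961.2, a log2 fold change of 1.00 ± 0.14 (adjusted p = 0.00425). It is also a marker in the lateral plate list, whose summed signal is given above. dlx3.S, a homeobox gene of the epidermis, was 1871.0, 1746.4 and 1814.4 without and 2468.9, 2354.2 and 2394.0 with bhh. Its log2 fold change was 0.41 ± 0.11 (adjusted p = 0.152, blocked 0.0192).

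The remaining 50 tested probe sets of that list passed in neither fit. They include antagonist and modulator genes, such as twsg1.L (0.06 ± 0.19), nbl1.L (-0.48 ± 0.31) and lefty.L, which encodes a nodal inhibitor. For lefty.L the signals were 57.9, 39.9 and 41.7 without bhh and 68.8, 92.9 and 80.9 with it. These groups did not overlap, but the difference of 0.81 ± 0.26 on the log2 scale passed in neither fit (limma adjusted p = 0.218, blocked 0.102). The lefty.S probe set was too dim to test, and its groups overlapped. Both lefty genes were named after their values were seen, as were twsg1.L, nbl1.L, gata2.L and the genes that follow it here. Both gata2.L probe sets, for a BMP-responsive GATA factor, had groups apart and log2 fold changes of 0.41 ± 0.14 and 0.40 ± 0.16, which did not pass (adjusted p = 0.266 and 0.362). Groups were separated upward for 13 of the 53 and downward for 2, beside 9.3% and 9.01% of all tested probe sets. The downward ones were vegt.L (-0.71 ± 0.26) and ctdspl.S (-0.40 ± 0.15), which passed in neither fit. Values for tbx2.L, tbx3.L and tbx3.S were -0.37 ± 0.22, -0.31 ± 0.28 and 0.02 ± 0.24.

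**Figure D4:**
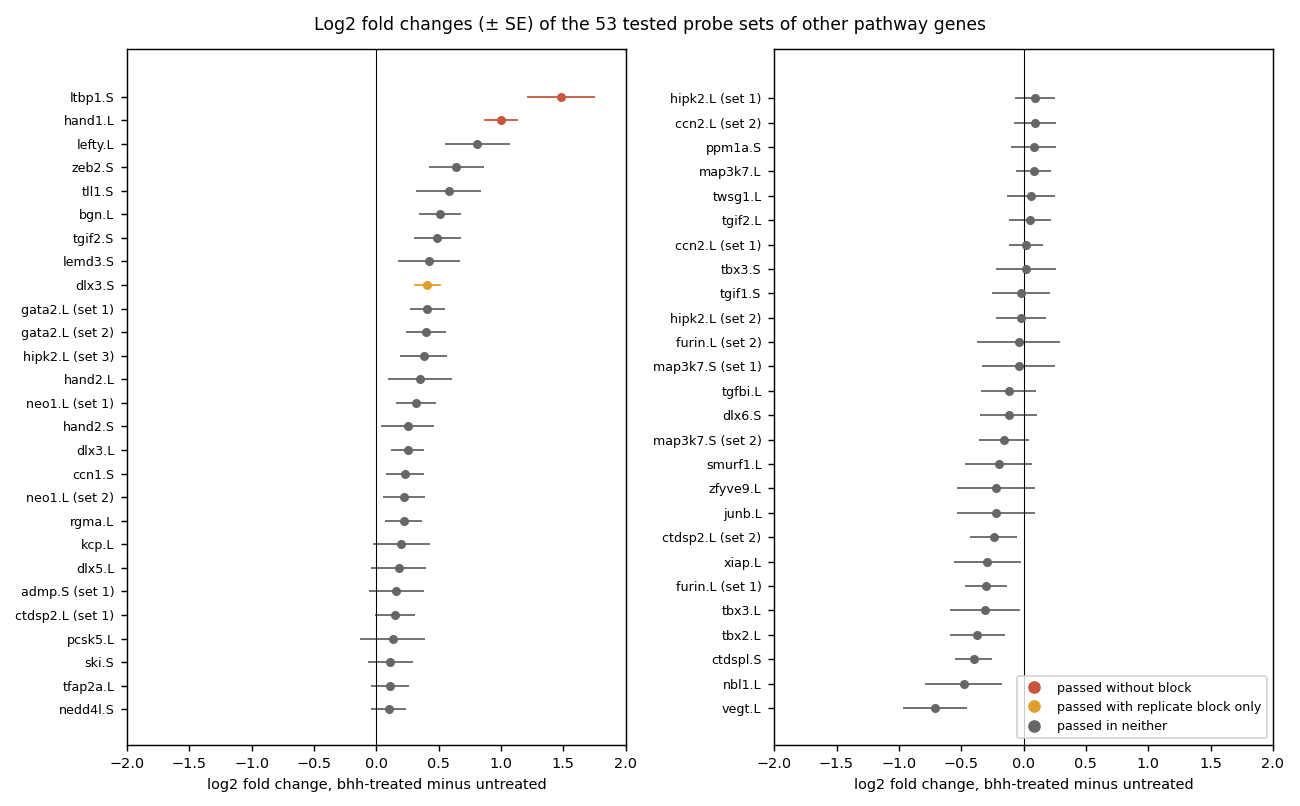
Log2 fold change (bhh-treated minus untreated, horizontal axis; points with SE bars from limma) of the 53 tested probe sets of other pathway genes, sorted by value. ltbp1.S at 1.48 and hand1.L at 1.00 passed without the block, and dlx3.S at 0.41 passed with it.

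The lateral plate markers that passed rose, while most of the muscle and pronephros markers that passed fell. Among the members, nodal1.L, smad1.S (on its dimmer probe set) and ventx2.1.S rose and fst.L fell. Of these calls, only that of fst.L held whichever single array was left out. No value here ties any of these genes to a tissue. The part of tissue composition in the values of fst.L, nodal1.L, smad1.S, ventx2.1.S, msx1 and id3 was not tested.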

How the data were processed

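RNA from 3 untreated and 3 bhh-treated pools was measured on 1-colour arrays. The authors deposited linear intensity values, with 1 MAS5 signal for each probe set, per the submitters' processing notes. Version and settings of MAS5: not given in the sources used here. Mismatch probes are subtracted in MAS5, which makes dim signals noisy. All 6 arrays were kept, as no pair shared over 0.25% identical values.

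Symbols came from the platform's gene table and were updated by gene identifier to RefSeq names of assembly Xenopus_laevis_v10.1. Of the 80 probe sets, 77 matched; the 3 for id3 and smad8c kept the platform's name. Linear models (limma 3.58.1, R 4.3.3, lmFit and trended eBayes, two-sided) were run on log2 signals over the 11618 probe sets left after the lowest 25% by mean log2 signal were removed. P-values were adjusted over all of these by the Benjamini-Hochberg method, with a threshold of 0.05, and the script was tested on simulated data. Folds are ratios of geometric means, and intervals cover 95%. The number of arrays limits precision.

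The group labels carry the numbers 1 to 3. Same-numbered arrays deviated from their group means with correlations of 0.407, 0.178 and 0.298, each over 0.1, so a fit with the number as a block was read beside the unblocked one. Crossing numbers 2 and 3 gave 0.173 and 0.147, so those are poorly resolved.

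Genes were named where they passed in either fit, or were among the 4 smallest p-values of their role, with their other probe sets and .L or .S partners; a few others were added after their values were seen. No sequences were used here. The members, lists and tests were chosen with earlier results of these data known. Alternatives were quantile or median scaling, an offset of 50, no filter or a 50% filter, array weights, no trend, the block, and leaving out each array; leaving out both arrays numbered 1 and using the brightest probe set per symbol were chosen after seeing the data.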

Additional observations from a re-analysis of the deposited data

How the results depend on the processing

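The count of higher members was 3 as reported. It was 8 with the replicate block, 9 with array weights and 5 without both arrays numbered 1. Quantile normalization, scaling to a common median, removal of the lowest 50% of probe sets and the brightest probe set per symbol each gave 2. The count was 1 with no filter on dim probe sets and 0 without trend. It was between 0 and 1 when 1 array was left out (1 without untreated 3 or treated 1, 0 without any of the other 4). The 1 lower member, fst.L, stayed 1 throughout except for 2 with the replicate block, where grem1.L joined it. The members' median log2 fold change, 0.19, lay between 0.14 and 0.30 on leaving out 1 array (0.28 without untreated 3, 0.30 without treated 1) and moved by less than the spread between pairs (0.06) under the other settings. Other pathway genes higher were 2, but 4 with array weights and 3 with the replicate block or without both arrays numbered 1. They were 1 with the lowest 50% of probe sets removed and 1 to 2 on leaving out 1 array (2 without untreated 1, 1 without any of the others).

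Of the log2 fold changes of named probe sets under the alternatives, 449 kept sign and side of the threshold, 29 lost and 17 gained a call, and 15 changed sign, none of the latter past the threshold in any fit. The sign changes were in bmp1.L (0.24 with array weights and 0.31 without both arrays numbered 1, and -0.37 to 0.18 on leaving out 1 array, with 0.18 without untreated 1 and 0.01 without treated 1), in bmp1.S (-0.70 to 0.09, with 0.09 without untreated 1), in acvr2b.L (-0.02 with quantile normalization, -0.01 with median scaling, -0.03 with array weights, and -0.07 to 0.12 on leaving out 1 array) and in the dimmer bmpr1a.L probe sets (-0.03 to 0.45 and -0.04 to 0.37, with -0.03 and -0.04 without untreated 1 and, for the latter, -0.01 without untreated 2). Leaving out 1 array moved the value of 17 of these 35 probe sets by over 1.5 times, none of which passed in either fit. Other probe sets given by value above are outside these counts, and some of them changed sign too. Examples are smad2.L (same sign in 13 of 16 settings) and the brighter chrd.1.S probe set (9 of 15). Causes were not tested. The fit without the lowest 50% of probe sets gave no value for several dim genes, ventx2.1.S among them. With signals close to the control level, 32 of 80 probe sets gave no test.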
